A study of Homo sapiens with 6 samples.

Results

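The open chromatin of 7 core pluripotency gene loci, POU5F1, SOX2, NANOG, LIN28A, LIN28B, SALL4 and L1TD1, was compared between 2 sorted populations of WA09, an established human embryonic stem cell line. The members were the regions of the deposited accessibility table whose midpoint lay in a fixed hg19 window around each gene, 45 of 118556 regions in all. The POU5F1 window was chr6:31110000-31160000, SOX2 chr3:181380000-181480000, NANOG chr12:7925000-7960000, LIN28A chr1:26720000-26780000, LIN28B chr6:105380000-105550000, SALL4 chr20:50380000-50440000 and L1TD1 chr1:62640000-62700000. They held 5, 10, 4, 5, 11, 3 and 7 regions in that order. The labels name no genetic change or drug. Cells were sorted with the antibodies GCTM-2, which binds a surface proteoglycan of pluripotent cells, and against CD9, a tetraspanin. The GCTM-2highCD9highEPCAMhigh group, called the high population here, was also gated on EPCAM, an epithelial adhesion molecule, and the GCTM-2midCD9mid group, called the mid population, carries no EPCAM gate in its label and is titled low. The label on sorting omits EPCAM for the high group too, so that the 2 groups may differ in EPCAM as well as in GCTM-2 and CD9. Each group had 3 libraries, described by the study as biological replicates, all from the 1 cell line.

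POU5F1 (OCT4), SOX2 and NANOG are transcription factors that bind one another's regulatory DNA and hold pluripotent cells in the undifferentiated state. SALL4 is a zinc finger factor that works with them, LIN28A and LIN28B are RNA-binding proteins that block maturation of the let-7 microRNAs, and L1TD1 is an RNA-binding protein derived from a LINE-1 element that is abundant in human pluripotent cells. Open chromatin at such loci includes promoters as well as distal elements where transcription factors bind. FAST-ATAC reads it as the number of places cut by the Tn5 transposase, averaged over all cells of a library, so that a site open in fewer cells and a site less open in every cell cannot be told apart.

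The counts table held 15486251 to 26225539 reads per high library and 23091028 to 29025274 per mid library. A member region held between 16 and 2614 reads in a library, and a whole window between 450 and 6671. Levels are given as CPM, the reads of a region scaled to the library size after TMM normalization, and fold changes are log2 of high over mid from edgeR's quasi-likelihood test on all 118556 regions, with the replicate number as a block. A region was called at a Benjamini-Hochberg adjusted p under 0.01, over all regions. Each window is wider than its gene. In the GRCh38 annotation, used for names alone, CCHCR1, TCF19 and PSORS1C3 neighbour POU5F1, the noncoding SOX2-OT spans SOX2, DHDDS neighbours LIN28A, LIN28B-AS1 neighbours LIN28B and ATP9A neighbours SALL4. No hg19 annotation was used, so regions were not assigned to a promoter, exon or intron, or to a gene. A region listed under a window may thus belong to a neighbouring gene.

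RefSeq promoter sequences on GRCh38.p14 were found for SOX2, NANOG, LIN28B and L1TD1, 4 of the 7 genes. The 250 bases before an annotated start are shown for 3 of these, since they differ in the strings searched here and in base composition. All are on the plus strand. Capitals mark the octamer core ATGCAAA, for OCT4, and the SOX letters CATTGT, for SOX2, read on either strand. Only these exact strings were searched, so other forms that OCT4 or SOX2 recognise are left unmarked. These coordinates are of another build than the accessibility regions and cannot be set beside them.
NANOG, chr12:7789152-7789401: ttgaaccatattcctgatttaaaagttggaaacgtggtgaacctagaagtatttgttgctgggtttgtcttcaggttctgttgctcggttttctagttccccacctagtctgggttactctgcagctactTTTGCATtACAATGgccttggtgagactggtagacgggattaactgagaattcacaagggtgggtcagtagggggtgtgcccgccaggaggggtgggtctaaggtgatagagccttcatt
SOX2, chr3:181711675-181711924: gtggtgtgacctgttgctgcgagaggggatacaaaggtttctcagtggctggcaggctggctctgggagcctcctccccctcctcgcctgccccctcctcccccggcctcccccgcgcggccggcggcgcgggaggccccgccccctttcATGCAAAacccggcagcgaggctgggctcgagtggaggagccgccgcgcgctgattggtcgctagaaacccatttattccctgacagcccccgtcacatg
LIN28B, first of 2 entries, chr6:104940715-104940964: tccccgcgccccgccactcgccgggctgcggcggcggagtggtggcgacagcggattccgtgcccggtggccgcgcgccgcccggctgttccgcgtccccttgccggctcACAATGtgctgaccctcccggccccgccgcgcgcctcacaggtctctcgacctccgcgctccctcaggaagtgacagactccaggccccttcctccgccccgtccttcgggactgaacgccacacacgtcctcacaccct

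The NANOG sequence holds the SOX letters and the octamer core side by side on the minus strand, with 1 base between them, beginning 120 bases before the start. This composite occurs in 2 of 35116 promoter sequences of the same length (0.0057%), NANOG included. With or without the other letters, the octamer core occurs in 3.94% of them, among them SOX2, where it begins 100 bases before the start, and the SOX letters in 9.29%, among them the first LIN28B entry. The second LIN28B entry and L1TD1 hold neither. The G and C share was 47.6% for NANOG, 68.8% for SOX2 and 73.6% for the first LIN28B entry, against a median of 58.0% over all promoters, and CG dinucleotides numbered 4, 20 and 33. A match to these letters is a description of the sequence and not a measured binding site.

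Most regions of the 7 windows had fewer reads in the high population. The log2 fold change was below 0 in 35 of the 45 regions (77.8%), against 46.5% of all regions, and its median was -0.20, against 0.03 over all regions. The members' median was -0.10 without mid replicate 1, against 0.04 over all regions, and -0.13 without high replicate 1, against 0.01. With scaling by total counts it was -0.11, against 0.12 over all regions. With a smooth trend on region width removed from the counts it was -0.15, against 0.004 over all regions. With a trend on average abundance removed it was -0.14, against 0.002. At an adjusted p under 0.01, 5 of the 45 (11.1%) were called more accessible in the mid population, where 3.77% of all regions were called in that direction. None was called more accessible in the high population by edgeR's quasi-likelihood test or by DESeq2. In edgeR's test 2.32% of all regions were, a share at which few calls would be expected among 45 regions. At an unadjusted p under 0.05 in edgeR's quasi-likelihood test, 1 member was higher in the high population and 16 were lower. Over all 118556 regions these numbers were 16823 and 16158. The 5 called regions lay in the windows of LIN28A, SALL4 (2 regions), POU5F1 and LIN28B, and no region of SOX2, NANOG or L1TD1 was called by this test. All 3 same-numbered pairs were lower in the high library in 22 of the 45 regions (48.9%), against 22.4% of all regions, and higher in 6 (13.3%), against 25.3%. Every high library lay below every mid library in 10 regions (22.2%, against 13.0% of all regions) and above in 2 (4.44%, against 12.9%). With no replicate block, 1.11% of all regions were called toward the mid population and 0.236% toward the high population, and 2 member regions, those of LIN28A and SALL4 with the smallest p-values, were among the former. The calls also rested on the second pair of libraries: without the replicate 2 pair, or without mid replicate 2 alone, none of the 5 was called, and without high replicate 2 alone 2 were. Calls were lost across the table in these fits, with 438 regions called toward the mid population without the pair, 432 without mid replicate 2 and 839 without high replicate 2, against 4472 with all libraries.

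**Figure D1:**
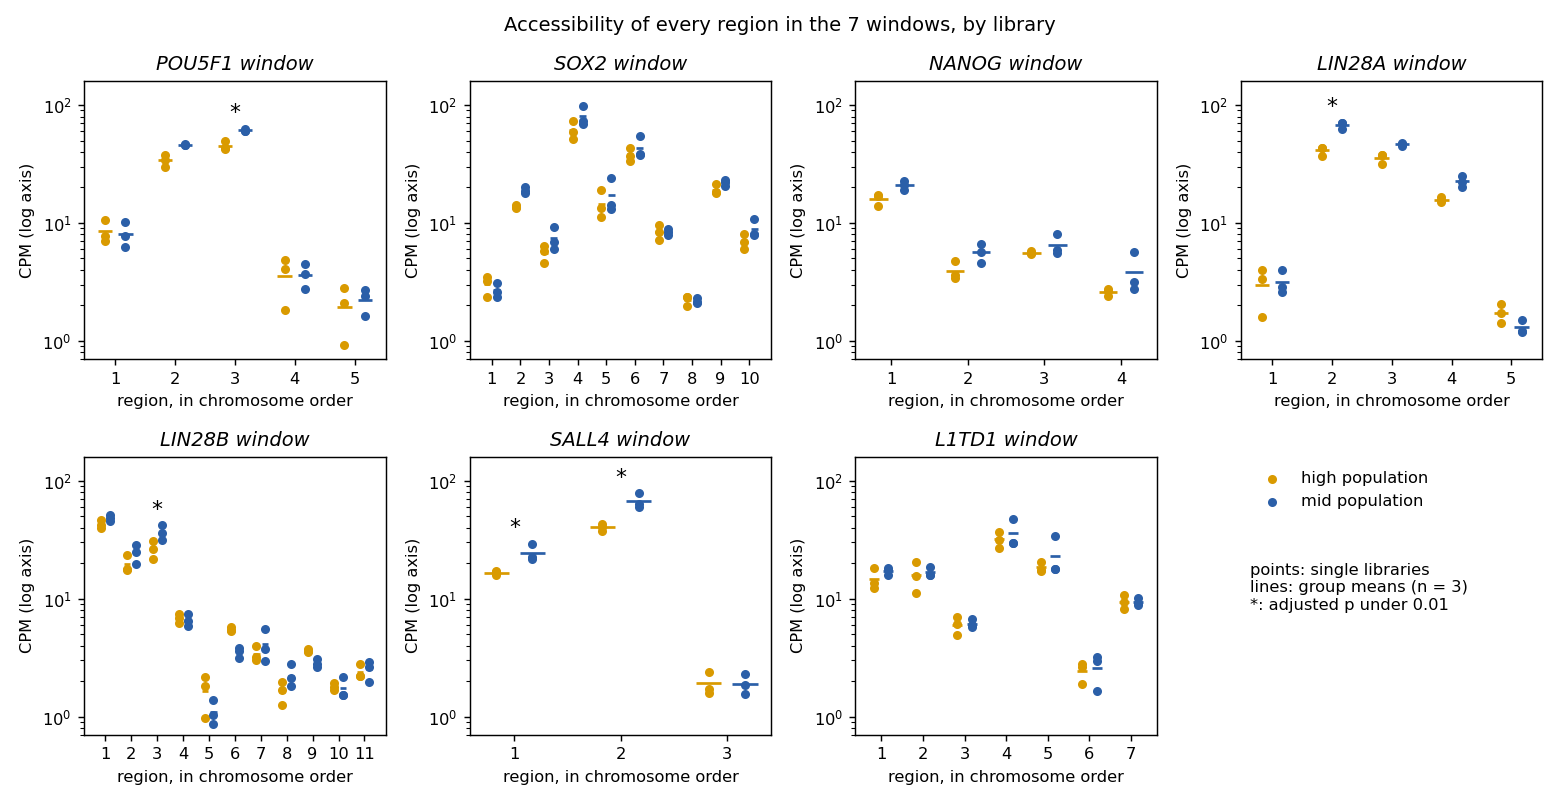
CPM (log axis) of each of the 45 regions, numbered in chromosome order within its window, with points for single libraries of the high and mid populations, lines for the means of 3 and an asterisk over the 5 called regions. The regions with the most reads sit lower in the high population in most windows, and most regions of few reads overlap.

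Region width divided the members. Of the 45 regions, 17 spanned at least 2000 bp, a limit set after the values were seen. All 17 had a log2 fold change below 0, with a median of -0.39, where 72.2% of all regions this wide were below 0. Every high library lay below every mid library in 9 of the 17 (52.9%), against 41.1% of all regions this wide. All 5 called regions were among these 17 (29.4%). In the whole table, 20.7% of regions of at least 2000 bp were called toward the mid population and 1.93% toward the high population, with a median of -0.22. The background of wide regions is therefore far above that of all regions, and it rises further with width: 40.7% of regions of at least 4000 bp were called toward the mid population and 0.443% toward the high, with a median of -0.38, and of the 5 members this wide, 3 were called. Under 2000 bp, the remaining 28 members had a median of -0.06, against 0.07 for all regions of that size. None was called by the quasi-likelihood test under TMM. Among all 104517 regions of that size, 1.49% were called toward the mid population and 2476 regions toward the high. At such shares few calls would be expected among 28 regions. When a smooth trend on region width was removed from the counts, none of the 5 regions was called, and their log2 fold changes moved closer to 0. POU5F1 moved from -0.45 to -0.078, LIN28A from -0.73 to -0.34, LIN28B from -0.48 to -0.24, the wider SALL4 region from -0.73 to -0.39 and the other from -0.55 to -0.43. With total counts in place of TMM, or with a trend on average abundance removed, the calls toward the mid population were the widest regions of LIN28A and SALL4.

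**Figure D2:**
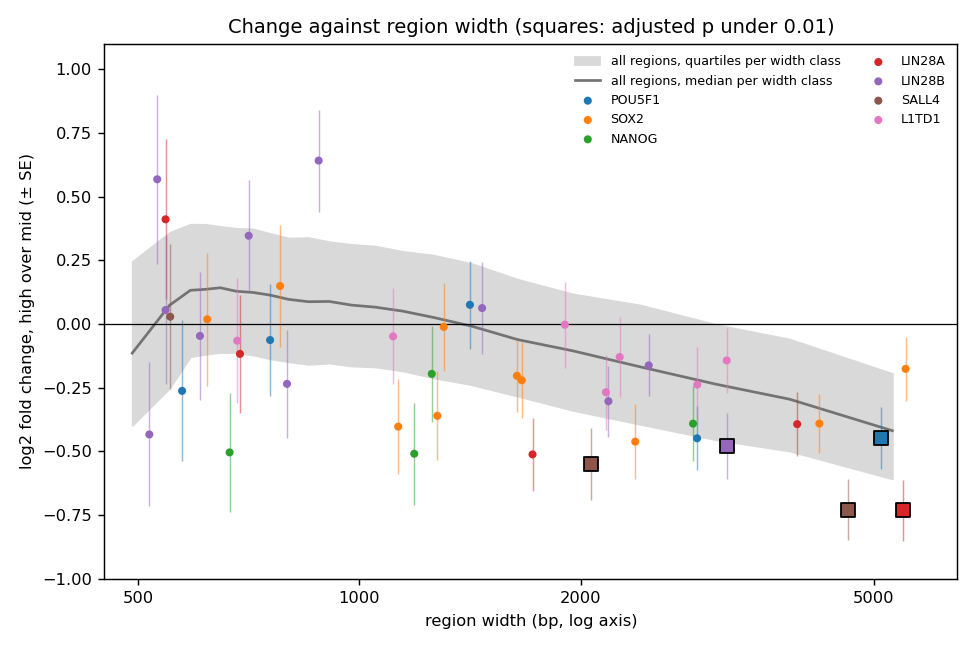
Log2 fold change of high over mid (± SE) against region width (log axis) for the 45 regions, coloured by window, with squares for the 5 called regions. The grey line and band give the median and quartiles of all 118556 regions by width class, which fall as width grows past the narrowest classes, and the called regions lie at or below the median of their width.

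The POU5F1 window held 5 regions, of which the widest, chr6:31136792-31141914 (5123 bp), had the smallest p-value. It held 42.5, 43.1 and 49.6 CPM in high replicates 1, 2 and 3 and 60.5, 63.1 and 60.4 CPM in mid replicates 1, 2 and 3. Every high library lay below every mid library, with a log2 fold change of -0.45 (SE 0.12) and an adjusted p of 0.00869 in edgeR's quasi-likelihood test. The value was -0.078 with a trend on width removed and -0.18 with a trend on abundance removed. The region densest in reads, chr6:31125105-31127981 (2877 bp, 13.9 CPM per kb over all libraries), held 30.0, 34.1 and 37.7 CPM in high replicates 1, 2 and 3 and 45.7, 45.8 and 47.0 CPM in mid replicates 1, 2 and 3. It likewise did not overlap between the populations, with a log2 fold change of -0.45 (SE 0.13), but its adjusted p of 0.0112 from the same test lay just outside the threshold, which it passed under 7 of 18 alternative settings. The other 3 regions held at most 10.6 CPM in every library, overlapped between the populations and had log2 fold changes from -0.26 to 0.08. The annotation counts 6 pseudogenes named for POU5F1, 11 for NANOG, 7 for SALL4, 3 for LIN28A and 1 for L1TD1, and the aligner was run with its defaults, so values at sites that resemble such copies are uncertain.

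The SOX2 window held 10 regions, and 8 had a log2 fold change below 0, none of them called by the quasi-likelihood test under TMM. The densest, chr3:181427061-181431279 (4219 bp, 16.7 CPM per kb), held 72.8, 58.6 and 51.8 CPM in high replicates 1, 2 and 3 and 98.2, 73.2 and 69.3 CPM in mid replicates 1, 2 and 3. Replicate 1 was the highest of its group in both populations, and high replicate 1 lay above mid replicate 3. Each of the 3 pairs was nevertheless lower in the high library, with a log2 fold change of -0.39 (SE 0.12) and an adjusted p of 0.0172 in edgeR's test. It passed the threshold under 4 of 18 alternative settings, among them DESeq2 (adjusted p = 0.0084), while its value was -0.075 with a trend on width removed and -0.088 with a trend on abundance removed. The region chr3:181417015-181419385 (2371 bp) did not overlap, with 13.7 ± 0.460 CPM over the high libraries and 18.9 ± 1.15 CPM over the mid libraries (SD, n = 3 each), a log2 fold change of -0.46 (SE 0.15) and an adjusted p of 0.0279 from the same test. The widest region of all 7 windows, chr3:181440714-181446239 (5526 bp), held 43.6, 37.0 and 33.9 CPM in high replicates 1, 2 and 3 and 54.3, 38.5 and 37.6 CPM in mid replicates 1, 2 and 3. Its log2 fold change was -0.18 (SE 0.12) and the libraries overlapped, and removing a trend on width or abundance turned this value above 0.

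NANOG had the fewest reads per kb of region of the 7 windows in each of the 6 libraries. Its 4 regions all had a log2 fold change below 0, from -0.51 to -0.20, and all 3 pairs were lower in the high library in each of the 4, although pair 3 was all but level in the region chr12:7951171-7952424. The widest and densest, chr12:7939672-7942512 (2841 bp), held 13.9, 16.8 and 17.3 CPM in high replicates 1, 2 and 3 and 22.9, 20.9 and 19.0 CPM in mid replicates 1, 2 and 3. The highest high library lay below the lowest mid library, with a log2 fold change of -0.39 (SE 0.15) and an adjusted p of 0.0655 in edgeR's test, which did not pass. It was -0.23 without mid replicate 1, -0.25 without high replicate 1 and -0.19 with a trend on width removed. The size of the difference varied between pairs, with log2 differences of -0.72, -0.32 and -0.14 in pairs 1, 2 and 3. In the narrowest region, chr12:7959345-7960010, mid replicate 1 held 5.63 CPM where the other 5 libraries held 2.40 to 3.14.

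SALL4 was the window in which 2 of 3 regions were called, neither of them assigned to SALL4 or to its neighbour ATP9A. The widest, chr20:50415143-50419750 (4608 bp), held 43.1, 40.9 and 37.8 CPM in high replicates 1, 2 and 3 and 78.9, 60.3 and 63.4 CPM in mid replicates 1, 2 and 3. No libraries overlapped, and the log2 fold change was -0.73 (SE 0.12) with an adjusted p of 2.36e-05 in edgeR's quasi-likelihood test. The second, chr20:50383118-50385178 (2061 bp), held 17.3, 15.9 and 16.8 CPM in high replicates 1, 2 and 3 and 29.4, 21.8 and 22.5 CPM in mid replicates 1, 2 and 3. The populations were again apart, with a log2 fold change of -0.55 (SE 0.14) and an adjusted p of 0.00578 from the same test, a call that was lost without the replicate 1 pair or either of its libraries. Mid replicate 1 was the highest library in both regions. The third region, chr20:50426560-50427112 (553 bp), held 1.91 ± 0.436 CPM over the high libraries and 1.89 ± 0.380 CPM over the mid libraries (SD, n = 3 each) and overlapped. Within the window, the widest region took 68.6% ± 1.94 of the reads of high libraries and 71.8% ± 0.383 of those of mid libraries (SD, n = 3 each). This share does not depend on scaling, and the 2 groups did not overlap. The second called region took 28.2% ± 1.14 and 26.1% ± 0.567, apart in the opposite direction. The called regions of LIN28A (42.4% ± 3.75 and 48.1% ± 2.06) and POU5F1 (48.6% ± 2.58 and 50.5% ± 1.62) overlapped in their share of their own window.

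LIN28A and SALL4 held the 2 largest fold changes of the 45 regions, which were alike in size. The widest LIN28A region, chr1:26734776-26740257 (5482 bp), held 43.3, 43.2 and 37.3 CPM in high replicates 1, 2 and 3 and 70.8, 71.1 and 63.2 CPM in mid replicates 1, 2 and 3. The pairs differed by -0.71, -0.72 and -0.76 on the log2 scale, the closest agreement among the called regions, and the log2 fold change was -0.73 (SE 0.12) with an adjusted p of 1.82e-05 in edgeR's quasi-likelihood test. The next 2 regions in chromosome order were also lower in every high library than in any mid library. The region chr1:26742587-26746522 (3936 bp) held 35.6 ± 3.29 CPM over the high libraries and 46.6 ± 1.41 CPM over the mid libraries (SD, n = 3 each), with a log2 fold change of -0.39 (SE 0.12) and an adjusted p of 0.0274 from the same test, and its value was -0.098 with a trend on width removed. The densest region, chr1:26757752-26759470 (1719 bp, 11.1 CPM per kb), held 15.8 ± 0.816 CPM over the high libraries and 22.5 ± 2.26 CPM over the mid libraries (SD, n = 3 each), with a log2 fold change of -0.51 (SE 0.14) and an adjusted p of 0.0110, just outside the threshold of that test, which it passed under 3 of 18 alternative settings. The 2 outer regions held few reads and overlapped, and the last, chr1:26773866-26774410, was the only one of the 5 with a log2 fold change above 0, at 0.41 (SE 0.31), from 23 to 55 reads per library.

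LIN28B, the paralog of LIN28A with the longest gene of the 7, had 6 regions with a log2 fold change below 0 and 5 above, the most even division of the 7 windows. Its widest region, chr6:105403285-105406441 (3157 bp), held 30.8, 26.6 and 21.8 CPM in high replicates 1, 2 and 3 and 42.0, 36.3 and 31.6 CPM in mid replicates 1, 2 and 3. High libraries were all below mid libraries, though high replicate 1 came within 1 CPM of mid replicate 3, and the log2 fold change was -0.48 (SE 0.13) with an adjusted p of 0.00801 in edgeR's quasi-likelihood test. This call was also lost without the replicate 3 pair or either of its libraries. The densest region of all 45, chr6:105387642-105390114 (2473 bp, 18.4 CPM per kb), held 43.0 ± 3.57 CPM over the high libraries and 48.1 ± 2.89 CPM over the mid libraries (SD, n = 3 each) and overlapped, with a log2 fold change of -0.16 (SE 0.12), which turned above 0 with a trend on width or abundance removed.

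In the opposite direction, the region chr6:105461949-105462828 (880 bp), named here after its values were seen, held 5.36, 5.72 and 5.41 CPM in high replicates 1, 2 and 3 and 3.83, 3.16 and 3.56 CPM in mid replicates 1, 2 and 3. Every high library was above every mid library. This was the largest positive change of the 45 regions, at 0.64 (SE 0.20), with an adjusted p of 0.0241 in edgeR's test. It missed the threshold under TMM and passed it under 1 of 18 alternative settings, scaling by total counts. One further region, chr6:105485880-105486586, was higher in every high library, with 3.64 ± 0.108 CPM over the high libraries and 2.85 ± 0.234 CPM over the mid libraries (SD, n = 3 each) and an adjusted p of 0.303 from the same test. The division of the window's own reads, which no scaling changes, showed both directions. The widest region took 22.6% ± 1.66 of them in high libraries and 27.4% ± 2.04 in mid libraries (SD, n = 3 each). The region chr6:105461949-105462828 took 4.77% ± 0.513 and 2.64% ± 0.165, and neither share overlapped between the populations. Shares were also higher without overlap in chr6:105416592-105418059, chr6:105485880-105486586 and chr6:105504304-105504848. Their log2 fold changes were 0.06, 0.35 and 0.06, so a share can be apart where the fold change is small. Shares within a window add up to a whole, so a lower share of one region raises the others.

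**Figure D3:**
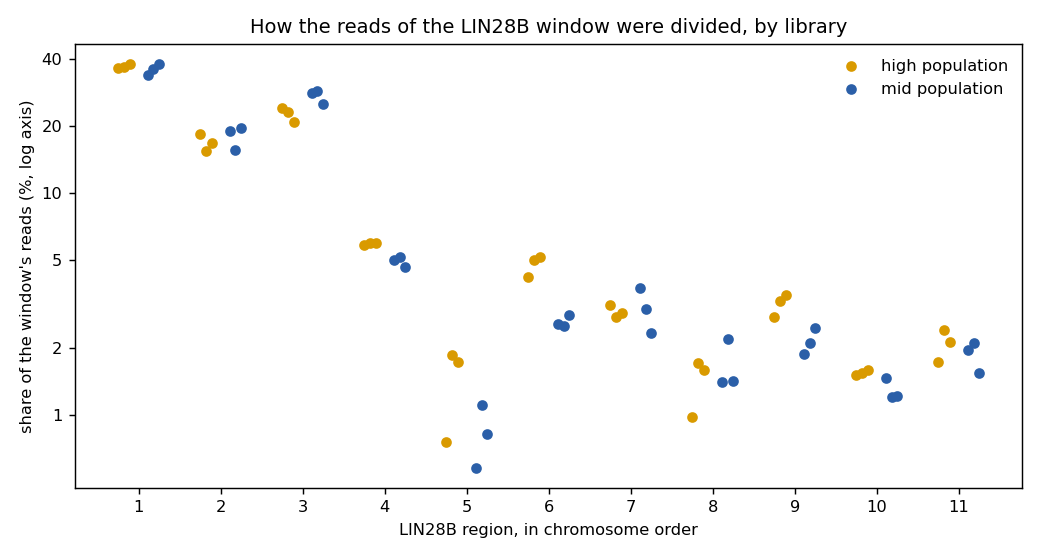
Share of the LIN28B window's reads (%, log axis) taken by each of its 11 regions in chromosome order, with a point for each library. The third region, the widest, has lower shares in the high population, and the sixth has higher shares, with no overlap between the groups in either. Some other regions also have higher shares without overlap.

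L1TD1 had the smallest difference of the 7 window sums. All 7 regions had a log2 fold change below 0, but none was beyond -0.27, and no region had an unadjusted p under 0.05 or populations that did not overlap. The region with the smallest p-value, chr1:62663092-62665254 (2163 bp), held 20.6, 17.6 and 17.3 CPM in high replicates 1, 2 and 3 and 34.1, 17.7 and 17.8 CPM in mid replicates 1, 2 and 3. Mid replicate 1 alone stood above the rest, and the log2 fold change was -0.27 (SE 0.15) with an adjusted p of 0.227 in edgeR's test. Without mid replicate 1, it was -0.028. The adjacent region chr1:62659752-62662908 (3157 bp), the widest and densest, held 37.0, 27.1 and 31.4 CPM in high replicates 1, 2 and 3 and 47.4, 29.9 and 29.9 CPM in mid replicates 1, 2 and 3. It was again highest in mid replicate 1, and its log2 fold change of -0.14 (SE 0.13) became -0.031 without that library.

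Summed over the regions of a window and divided by the length they cover, the levels of all loci but L1TD1 and NANOG were close to one another in the high population. POU5F1 held 8.66 ± 1.05 CPM per kb, SOX2 8.42 ± 1.06, LIN28B 8.36 ± 0.839, SALL4 8.19 ± 0.355 and LIN28A 7.87 ± 0.293 (SD, n = 3). Neighbours in this order differed by less than the larger of their SDs. L1TD1 followed with 6.98 ± 0.330 and NANOG with 4.73 ± 0.357 CPM per kb, below every other window in each high library. In the mid population SALL4 came first with 13.0 ± 1.91 CPM per kb, followed by LIN28A with 11.5 ± 0.392, POU5F1 with 11.3 ± 0.380, SOX2 with 10.3 ± 1.65 and LIN28B with 9.64 ± 0.977. Neighbours again differed by less than the larger of their SDs. Within each mid library, though, SALL4 lay above LIN28A and SOX2 above LIN28B. L1TD1 followed with 7.85 ± 1.30 and NANOG with 6.21 ± 0.938. Each sum was lower in the high population. The log2 difference was -0.66 for SALL4, -0.55 for LIN28A, -0.39 for POU5F1 and -0.39 for NANOG, and in these 4 windows every high library lay below every mid library (p = 0.1 in a two-sided exact permutation test, which cannot go lower with 3 libraries against 3). With total counts in place of TMM, the POU5F1 libraries overlapped (-0.30, exact permutation p = 0.2). Under TMM, the libraries overlapped for SOX2 (-0.29, exact permutation p = 0.3), LIN28B (-0.20, p = 0.3) and L1TD1 (-0.16, p = 0.4). Without mid replicate 1 these differences were -0.16, -0.12 and -0.027, and without the replicate 1 pair the NANOG difference was -0.23. By pair, the sum was lower in the high library in all 3 pairs of every window but L1TD1, where pair 2 differed by 0.058.

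**Figure D4:**
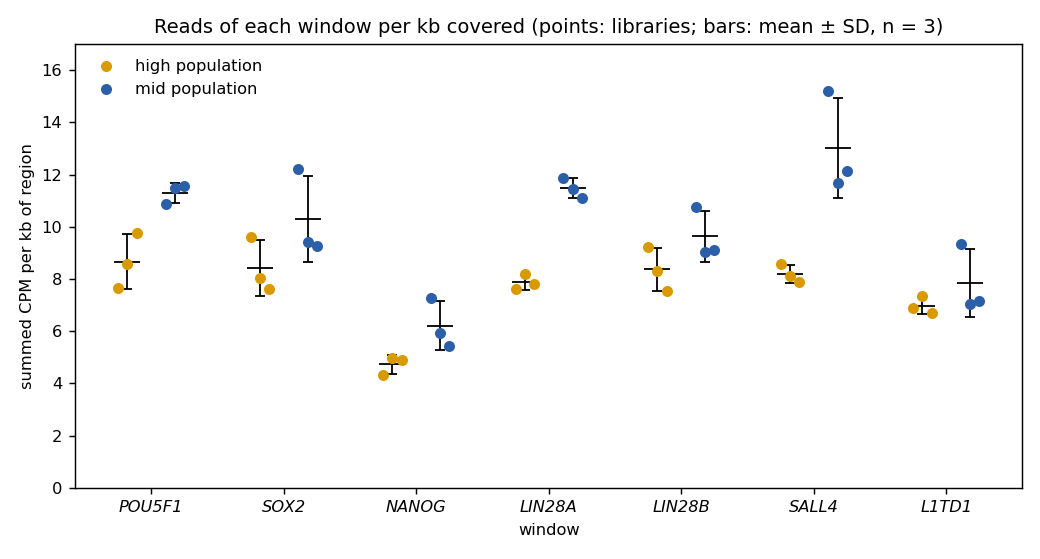
Summed CPM per kb of region for each window, with a point for each library and bars for the mean ± SD of 3. High and mid libraries are apart in the windows of POU5F1, NANOG, LIN28A and SALL4 and overlap in those of SOX2, LIN28B and L1TD1.

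The chromatin around the windows was not alike. Among the 50 regions within 500 kb on either side of the SALL4 window, 46 had a log2 fold change below 0, with a median of -0.31, beside -0.55 inside the window. The surroundings of LIN28A had a median of -0.32 over 69 regions, 10 of them called toward the mid population, beside -0.39 inside. Those of NANOG (-0.24, 48 regions) and POU5F1 (-0.20, 81 regions) were also below 0, beside -0.45 and -0.26 inside. These 4 windows lay in neighbourhoods that were themselves lower in the high population. Around LIN28B the median was above 0, at 0.28, with 34 of 41 regions positive, beside -0.05 inside. Around SOX2 and L1TD1 it was 0.09 and 0.11, beside -0.21 and -0.13 inside. Member regions had a median width of 1413 bp against 879 bp for all regions. Median widths inside and around a window were 2061 and 800.5 bp for SALL4, 2163 and 979.5 for L1TD1 and 1469.5 and 774.5 for SOX2. They were 1719 and 1504 bp for LIN28A, 1413 and 1279 for POU5F1, 1220.5 and 1186.5 for NANOG and 797 and 901 for LIN28B. The medians inside and around are not adjusted for width. Why the surroundings differ was not tested.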

How the data were processed

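FAST-ATAC libraries of sorted WA09 cells were analysed, 3 of the high and 3 of the mid population. Per the labels and the study's methods, the authors trimmed reads (Trimmomatic), mapped them (BWA 0.7.15, hg19), removed duplicates, shifted reads to the Tn5 cut site and called regions with MACS (1.4.2 in the submitters' processing notes) on alignments combined across replicates. Regions from the 2 populations were merged, blacklisted ones removed, and the authors deposited raw counts per region and library. Calling on pooled alignments gives no replicate check of a region's presence. A wide region gathers more reads, and whether this bears on its call was not tested. Starts are printed 1 higher than deposited, as the table was read as counting from 0.

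The fit used edgeR 4.0.16 in R 4.3.3, with TMM scaling and the quasi-likelihood test over all 118556 regions, unfiltered. The replicate number entered as a block, in place of the study's batch term. P-values were adjusted over all regions by the Benjamini-Hochberg method, at a threshold of 0.01. The libraries held 15486251 to 29025274 reads, and with 3 libraries per group the precision rests on the spread between them. The replicate numbers are the only block that the labels give, and they were used as pairs. Across regions, deviations of same-numbered libraries from their group means correlated with r = 0.302, 0.191 and 0.234. Those of different numbers correlated with r from -0.257 to 0.0599. Deviations within a group cancel out, so these values are not independent of one another. The labels do not say whether a number marks a day or batch. Alternatives were DESeq2 1.42.0, other normalizations, loess trends (limma 3.58.1, span 0.3), a filter of CPM above 1 in at least 3 libraries, a threshold of 0.05, other windows and left-out libraries. Code was tested on simulated data. Each window's called regions, smallest p-value, most reads per kb and widest region are named by rule, and other regions were named after their values were seen. Members and lists were chosen with earlier results of these data known. Promoter letters are from RefSeq (GRCh38.p14). Other pluripotency genes were planned for an hg19 annotation and were not analysed here.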

Additional observations from a re-analysis of the deposited data

How the results depend on the processing

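Against 5 member regions called toward the mid population and 0 toward the high population, the fit with no replicate block called 2 and 0. Toward the mid population, total counts only and a loess trend on average abundance each gave 2, a loess trend on region width gave 0, upper quartile scaling gave 9 and a threshold of 0.05 gave 10. Toward the high population, total counts only and a threshold of 0.05 each gave 1. Fits that left out a pair or a single library gave 0 to 5 mid calls and 0 high calls, with 0 where the replicate 2 pair or mid replicate 2 was missing and 2 where high replicate 2 was. DESeq2, the likelihood ratio test and RLE size factors gave 7 mid calls each, the filter on low counts and any overlap with the window gave 5, and windows widened by 50 kb gave 6. Over all regions, mid calls numbered 4472 in the fit as reported, 3179 with total counts, 3123 with the trend on abundance and 2887 with that on width. They numbered 5676 with upper quartile scaling, 8391 at the threshold of 0.05, 3776 with DESeq2, 5016 with the likelihood ratio test and 4861 with RLE. High calls over all regions numbered 2747 in the fit as reported, 4971 with total counts and 7145 at the threshold of 0.05. Total counts put the median of all regions at 0.12, against 0.03 with TMM.

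No called region changed sign under any of these. Among the uncalled regions that were refitted, 3 turned above 0 when a trend was removed. For SOX2 (chr3:181440714-181446239) the value was 0.0475 with the trend on abundance and 0.21 with that on width, for LIN28B (chr6:105387642-105390114) 0.0774 and 0.0063, and for L1TD1 (chr1:62659752-62662908) 0.0533 and 0.0924. The cause was not tested. All 7 window sums kept their direction under other scalings, other windows and left-out libraries. Neither trend was removed from the sums, so their direction under those settings is not known. With total counts, the POU5F1 sum was -0.30, with an exact permutation p of 0.2. With pairs the sign-flip test cannot fall under 0.25. Regions with few reads limit what could be detected, and with 3 libraries a group these p-values rest on little replication.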
